A study of Mus musculus with 6 samples.

Results

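The genes described are 9 genes of retinoic acid metabolism and signalling, measured by RNA sequencing in podocytes of CD2BP2 knockout and wild-type mice. They were taken by symbol from the 36889 gene identifiers of the deposited tables. They comprise the degrading enzymes Cyp26a1 and Cyp26b1, the synthesizing enzymes Aldh1a1 and Aldh1a2, the uptake and binding proteins Stra6 and Crabp2, and the receptors Rara, Rarb and Rarg. Together they span 147 of 368092 exonic parts, the non-overlapping stretches into which the annotation was divided, and no member part overlaps a part of another gene. The set was chosen by its counts in the same KO and WT libraries, so the values in that comparison are a description and carry no test.

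Retinoic acid is made from vitamin A by successive oxidations, the last carried out by the ALDH1A enzymes, and is broken down in the cell by the CYP26 enzymes. It binds the nuclear receptors RARα, RARβ and RARγ, which sit on DNA with an RXR partner and switch between corepressor and coactivator complexes. In many tissues Cyp26a1 and Rarb are themselves switched on by retinoic acid, and in podocytes retinoic acid is known as a signal that favours the differentiated state.

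Polyadenylated RNA was sequenced in 3 libraries labelled WT control, genotype Wildtype, and 3 labelled KO, genotype CD2BP2 Knockout. All 6 libraries carry the labels C57BL/6 background and podocytes. The knockout allele is a floxed Cd2bp2 gene made in R1/E embryonic stem cells, and CD2BP2 is a GYF domain protein with a role in splicing. The Cre driver used for podocytes, the age of the animals and whether each library came from a separate animal are not given by the labels, so the spread between libraries may be partly technical; the treatment text of the labels describes macrophages from poly(I:C)-treated MxCre mice.

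Libraries held between 186022084 and 255554573 part counts. Cd2bp2 stood at 61.0, 61.8 and 60.8 CPM (read counts scaled to a common library size) in WT1, WT2 and WT3 and at 48.4, 47.3 and 51.0 CPM in KO1, KO2 and KO3, a log2 fold change of -0.32 (SE 0.05) over the whole gene; the deleted part was not measured separately. Podocyte markers were abundant, with a summed level of 21786.9 to 24512.5 CPM in WT and 19527.3 to 21256 CPM in KO over 10 genes, and none was near 0. The libraries also held RNA of other glomerular cells: 7 endothelial markers summed to 6818 to 7084 CPM in WT and 6240 to 6634 CPM in KO, and 11 mesangial and stromal markers to 2473 to 2802 and 2333 to 2854 CPM. Between KO and WT, 666 of 19742 genes tested passed an adjusted p of 0.05 in edgeR (3.37%), 319 higher and 347 lower in KO, and the median log2 fold change of all genes was 0.01.

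The sequence next to the Cyp26a1 start is shown because Cyp26a1 had the largest log2 fold change of the 9 genes, and because a retinoic acid response element is known there. Such elements are pairs of short half-sites read by the receptor and its RXR partner. RefSeq promoter windows of 300 bases (GRCm38.p6, another build than the one the deposited tables use) were found for 8 of the 9 genes, 16 windows in all. They do not cover every start. The Rara windows lay at its upstream starts, except for a window 4460 bases from the nearest annotated Rara transcript start. The internal first exon of Rara, described below, was therefore not searched. They were searched on both strands for direct repeats of the half-site AGGTCA, in which the first letter could also be G and the third also T, with a spacer of 1, 2 or 5 bases. A repeat with a 5-base spacer was found for Cyp26a1 and Rarb, no repeat with the shorter spacers was found in any member window, and the 5-base form was present in 32 of 32851 mouse promoter windows (0.0974%), beside 0.222% and 0.268% for spacers of 1 and 2 bases. The 240 bases before the annotated Cyp26a1 transcript start, chr19:37697558-37697797 on the plus strand, read as follows, with the half-sites in capitals; they appear there as their reverse complement.
Cyp26a1: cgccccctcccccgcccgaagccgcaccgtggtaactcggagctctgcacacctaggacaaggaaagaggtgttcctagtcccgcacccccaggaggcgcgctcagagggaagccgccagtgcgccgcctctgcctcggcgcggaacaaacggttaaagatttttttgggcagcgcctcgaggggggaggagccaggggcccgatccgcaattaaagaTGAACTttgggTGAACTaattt

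The 2 repeats are set beside each other to show how alike they are, each in 30 bases of its own strand, 5′ to 3′, with half-sites in capitals. The Cyp26a1 repeat ends 5 bases before the transcript start in the GENCODE annotation of that build and lies on the strand opposite to the gene (chr19:37697769-37697798, minus strand). The Rarb repeat lies on the gene's own strand, 36 bases before the RefSeq start and 14 bases inside the first exon of transcript ENSMUST00000063750, which starts 67 bases further upstream (chr14:16575506-16575535, minus strand).
Cyp26a1: caaattAGTTCAcccaaAGTTCAtctttaa
Rarb: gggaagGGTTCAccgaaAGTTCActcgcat

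Of the 17 bases of the repeat, 15 are identical. Counted from 1 at the repeat's 5′ end with the Cyp26a1 base first, the differences are A1G and C9G. These are matches of letters in a window, and binding was not measured.

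Cyp26a1, which hydroxylates all-trans retinoic acid for clearance, was almost without reads in the KO libraries. Its exonic parts (ENSMUSG00000024987, NCBIM37 chromosome 19, 37772298 to 37776018, plus strand) drew 1978, 2889 and 1249 counts in WT1, WT2 and WT3. The KO1, KO2 and KO3 libraries gave 162, 102 and 31 counts. Every KO library lay far below every WT library, although total depth was similar or greater in KO.

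Normalised for depth, Cyp26a1 stood at 10.6, 16.0 and 5.48 CPM in WT1, WT2 and WT3 and at 0.624, 0.464 and 0.129 CPM in KO1, KO2 and KO3. The means were 10.7 ± 5.28 CPM in WT and 0.406 ± 0.253 CPM in KO (SD, n = 3 each), so that the KO mean was 3.79% of the WT mean. The log2 fold change was -4.72 (SE 0.67), and it ranged from -5.18 to -4.30 over 14 other settings. In bulk RNA, fewer cells of the type that makes Cyp26a1 and less Cyp26a1 RNA per cell cannot be told apart. Summed podocyte markers were also lower in every KO library than in every WT library, by far less than Cyp26a1, and so were summed endothelial markers. Of the 10 podocyte markers, 7 had a log2 fold change below 0, beside 49.1% of all genes. Among the 10, 4 were lower in every KO library (14.8% of all genes), and Tcf21 was higher in every one (14.1%). All 7 endothelial markers had a value below 0, Pecam1 only at -0.00014, and 2 were lower in every KO library. The sums of 7 macrophage markers (83.4 to 110.2 CPM in WT, 161 to 182 in KO) were higher. So were those of 4 parietal epithelium markers (87.8 to 111.7 and 116.6 to 144.5 CPM), although 1 of them, Ncam1, had a log2 fold change of -0.11. Sums of tubule markers, given further below, reached higher in KO, with ranges that overlapped those of WT. The part of these cells in the Cyp26a1 difference was not tested.

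Cyp26b1, the second degrading enzyme, was by far the more abundant of the pair and was also lower in KO. It gave 92740, 65379 and 52340 counts in WT1, WT2 and WT3 and 47562, 14673 and 2199 counts in KO1, KO2 and KO3 (ENSMUSG00000063415, NCBIM37 chromosome 6, 84521938 to 84543740, minus strand). These correspond to 499, 363 and 229.8 CPM in WT and 183, 66.8 and 9.16 CPM in KO. The groups did not overlap, but KO1 lay close to WT3, while KO3 held 2.52% of the WT mean.

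The Cyp26b1 means were 364 ± 135 CPM in WT and 86.4 ± 88.7 CPM in KO (SD, n = 3 each), with the KO mean at 23.7% of the WT mean. The log2 fold change was -2.07 with an SE of 0.93, and the KO libraries ranged from 2.52% to 50.3% of the WT mean. It moved to -3.26 without KO1 and to -1.55 without KO3, and was negative in all 14 other settings.

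Of the 9 genes, only Cyp26a1 passed the threshold in the fit over all genes, beside 3.37% of all genes tested in either direction, 1.62% higher and 1.76% lower in KO. That call held when WT3 or KO3 was left out (2 of 6 such fits) and was lost when WT1, WT2, KO1 or KO2 was left out. All KO libraries lay below all WT libraries for Cyp26a1 and Cyp26b1, a pattern shown by 14.8% of all genes tested, and above them for Crabp2, shown by 14.1%. For the other 6 members the groups overlapped, and the median log2 fold change of the 9 was -0.01. Since the members were picked with this comparison known, nothing is read from these counts.

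**Figure D1:**
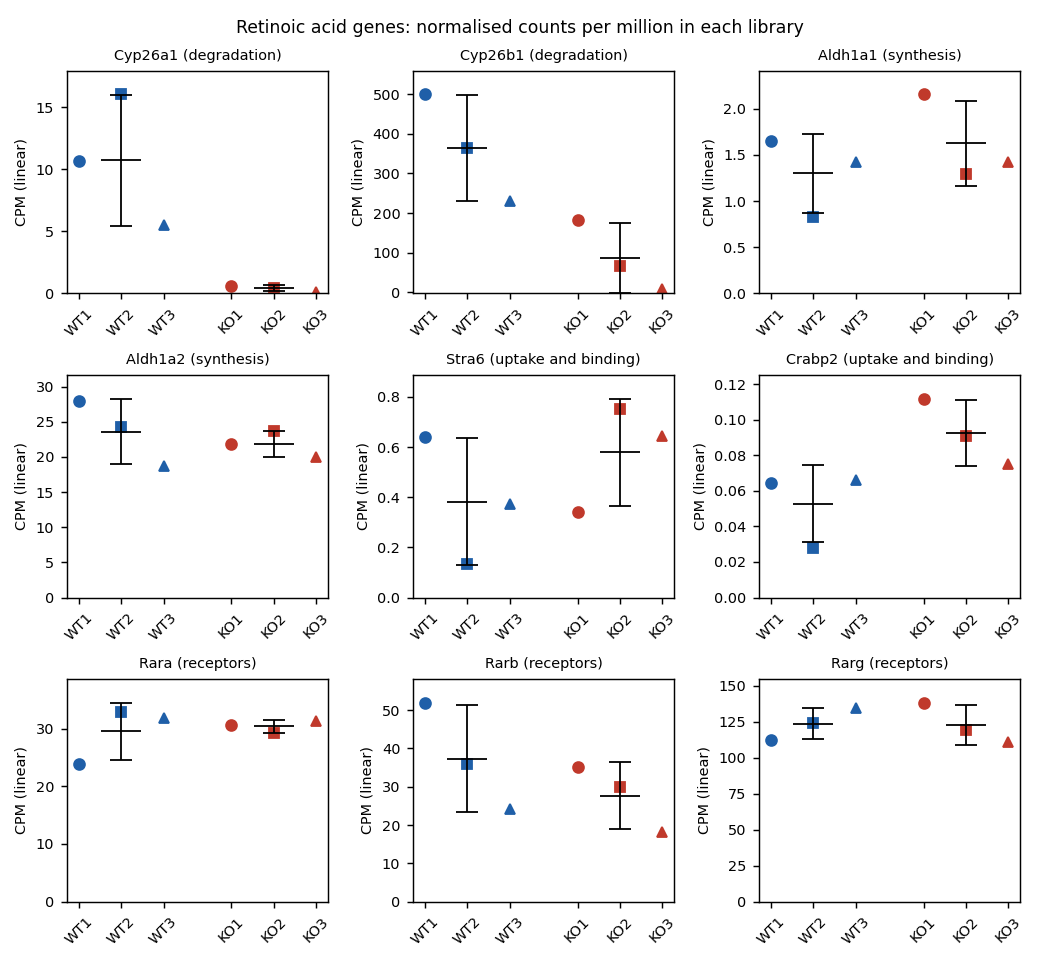
Normalised counts in CPM (linear axes, one scale per gene) of the 9 retinoic acid genes in each library; blue symbols are WT1 to WT3, red symbols KO1 to KO3, and black bars the group mean ± SD (n = 3). Cyp26a1 and Cyp26b1 are lower in every KO library than in any WT library, Crabp2 is higher in every KO library at 0.112 CPM or less, and the other 6 genes overlap.

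The synthesizing enzymes showed no comparable gap. Aldh1a2 (chromosome 9, 71063596 to 71144050, plus strand), the main retinaldehyde dehydrogenase of the embryo, stood at 27.9, 24.2 and 18.6 CPM in WT1, WT2 and WT3 and at 21.8, 23.7 and 20.0 CPM in KO1, KO2 and KO3. All 3 KO values fell within the WT range, with a log2 fold change of -0.11 (SE 0.15). Each of its 14 exonic parts kept a KO mean of 85.2% to 99.2% of the WT mean, and no part separated the groups.

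Aldh1a1 (chromosome 19, 20676451 to 20717952, plus strand), a second retinaldehyde dehydrogenase, was scarce in these libraries. It stood at 1.65, 0.827 and 1.42 CPM in WT1, WT2 and WT3 and at 2.15, 1.29 and 1.42 CPM in KO1, KO2 and KO3. The groups overlapped, with a log2 fold change of 0.32 (SE 0.32).

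The uptake and binding genes were close to the floor of detection. Stra6 (chromosome 9, 57911595 to 58001803, plus strand), the receptor that takes up vitamin A from its plasma carrier, had 119, 24 and 85 counts in WT1, WT2 and WT3 and 88, 165 and 155 counts in KO1, KO2 and KO3. Those counts are spread over 48 exonic parts, of which 14 had no reads in any library. At 0.641, 0.133 and 0.373 CPM in WT and 0.339, 0.751 and 0.646 CPM in KO, the groups overlapped, with a log2 fold change of 0.59 (SE 0.57).

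Crabp2 (chromosome 3, 87752588 to 87757298, plus strand), which carries retinoic acid to the nuclear receptors, had 12, 5 and 15 counts in WT and 29, 20 and 18 counts in KO. All KO libraries were above all WT libraries, from 0.075 to 0.112 CPM against 0.028 to 0.066 CPM. The log2 fold change was 0.79 (SE 0.41), on so few counts that single reads matter.

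All 3 receptors were expressed in both groups. Rarg (chromosome 15, 102065369 to 102087948, minus strand), the receptor most abundant here, stood at 112.5, 123.7 and 134.3 CPM in WT1, WT2 and WT3 and at 137.9, 119.4 and 111.1 CPM in KO1, KO2 and KO3. The highest and the lowest of these values both came from KO libraries, and the log2 fold change was -0.01 (SE 0.10). Rara (chromosome 11, 98789132 to 98836256, plus strand), the broadly expressed receptor, stood at 23.8, 32.8 and 31.9 CPM in WT and at 30.6, 29.1 and 31.3 CPM in KO. Its KO values all fell within the WT range, with a log2 fold change of 0.04 (SE 0.12).

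Rarb (chromosome 14, 17263356 to 17651381, minus strand) had a wider spread between libraries than the other receptors. It stood at 51.9, 36.0 and 24.1 CPM in WT1, WT2 and WT3 and at 35.0, 29.9 and 18.1 CPM in KO1, KO2 and KO3. The lowest WT library lay below the upper 2 KO libraries, so the groups overlapped. The KO mean was 74.2% of the WT mean, and the log2 fold change was -0.43 (SE 0.33).

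Levels of different genes were compared only per length, as CPM per kilobase of summed exonic parts. In WT the order was Cyp26b1 at 79.1 ± 29.3, Rarg at 30.1 ± 2.65, Rarb at 11.3 ± 4.23, Aldh1a2 at 10.4 ± 2.06, Rara at 6.45 ± 1.08 and Cyp26a1 at 6.05 ± 2.98 CPM per kilobase (SD, n = 3). Below these came Aldh1a1 at 0.634 ± 0.207, Stra6 at 0.0656 ± 0.0435 and Crabp2 at 0.0399 ± 0.0164 CPM per kilobase. The WT ranges overlapped between Rarb and Aldh1a2, between Rara and Cyp26a1, and between Stra6 and Crabp2. The Cyp26a1 range (3.09 to 9.05) also overlapped those of Rarb (7.31 to 15.8) and Aldh1a2 (8.23 to 12.3). The order within all those pairs is not settled by these libraries.

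In KO the order began with Rarg at 29.9 ± 3.35 CPM per kilobase, followed by Cyp26b1 at 18.8 ± 19.3, Aldh1a2 at 9.65 ± 0.829, Rarb at 8.41 ± 2.63 and Rara at 6.64 ± 0.243. Aldh1a1 at 0.791 ± 0.226 stood above Cyp26a1 at 0.229 ± 0.143, with ranges that did not overlap, whereas in WT Cyp26a1 was the higher of these. The KO range of Cyp26a1 overlapped those of Stra6, at 0.0993 ± 0.0367, and of Crabp2, at 0.0700 ± 0.0139 CPM per kilobase. The Cyp26b1 range was so wide (1.99 to 39.8) that it overlapped those of Rarg, Aldh1a2, Rarb and Rara. The KO ranges of Aldh1a2 and Rarb, and of Rarb and Rara, overlapped too, so their order is not settled either. Per length, Cyp26b1 exceeded Cyp26a1 by 18.1, 8.72 and 16.1 times in WT1, WT2 and WT3 and by 113, 55.4 and 27.3 times in KO1, KO2 and KO3. Within KO that ratio was highest in KO1, where Cyp26b1 was least reduced.

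The reads of Cyp26a1 were next followed along the gene, to see whether some exons kept their reads in KO. Each of its 7 exonic parts was lower in every KO library than in any WT library. Parts of a gene come from the same 6 libraries, and a read crossing parts enters more than once. They therefore repeat the difference of the whole gene, and the share of all exonic parts that separate the groups was not computed. The KO mean was 1.09% to 4.73% of the WT mean across the 7 parts, with a median of 3.92%. The first part, which holds the start of the gene, had 130, 206 and 98 counts in WT1, WT2 and WT3 and 2, 1 and 3 counts in KO1, KO2 and KO3.

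As a share of the gene's reads, the first Cyp26a1 part took 6.57% (95% exact interval 5.52% to 7.76%), 7.13% (6.22% to 8.13%) and 7.85% (6.42% to 9.48%) in WT1, WT2 and WT3. In KO1 it took 1.23% (0.15% to 4.39%), in KO2 0.980% (0.0248% to 5.34%) and in KO3 9.68% (2.04% to 25.8%). The intervals of KO1 and KO2 lie below those of the 3 WT libraries, KO2 by little (5.34% against 5.52% in WT1). That of KO3, with 31 counts in all, spans them. The intervals are Clopper-Pearson and cover counting error only. They treat each count as a separate read, although a read crossing parts enters more than once, so they can be too narrow.

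The last 4 parts of Cyp26a1 took 71.6%, 69.4% and 65.4% of its reads in WT1, WT2 and WT3 and 75.9%, 82.4% and 90.3% in KO1, KO2 and KO3. All KO shares were above all WT shares, but the interval of KO1 (68.6% to 82.3%) covers the values of WT1 and WT2. In KO3 the second and the third part had 0 of 31 counts. A limit set at 3 counts, an approximate one-sided 95% bound and not a Clopper-Pearson interval, allows a share of up to 9.68%.

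Along Cyp26b1 the KO mean was 20.3% to 24.4% of the WT mean in its 8 parts, and 7 of the 8 separated the groups. The exception was the short upstream first exon, with 37, 28 and 20 counts in WT1, WT2 and WT3 and 24, 1 and 2 counts in KO1, KO2 and KO3. The downstream first exon of Cyp26b1 held most of its 5′ reads, with 6563, 4530 and 3366 counts in WT and 2960, 840 and 110 counts in KO. That exon took 7.08%, 6.93% and 6.43% of the Cyp26b1 reads in WT1, WT2 and WT3 and 6.22%, 5.72% and 5.00% in KO1, KO2 and KO3. All KO shares were below all WT shares, but the exact intervals of KO1 (6.01% to 6.44%) and WT3 (6.22% to 6.64%) overlap. The KO3 level was 2.69% of the WT mean in the long last part and 1.37% in the part just downstream of that first exon.

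**Figure D2:**
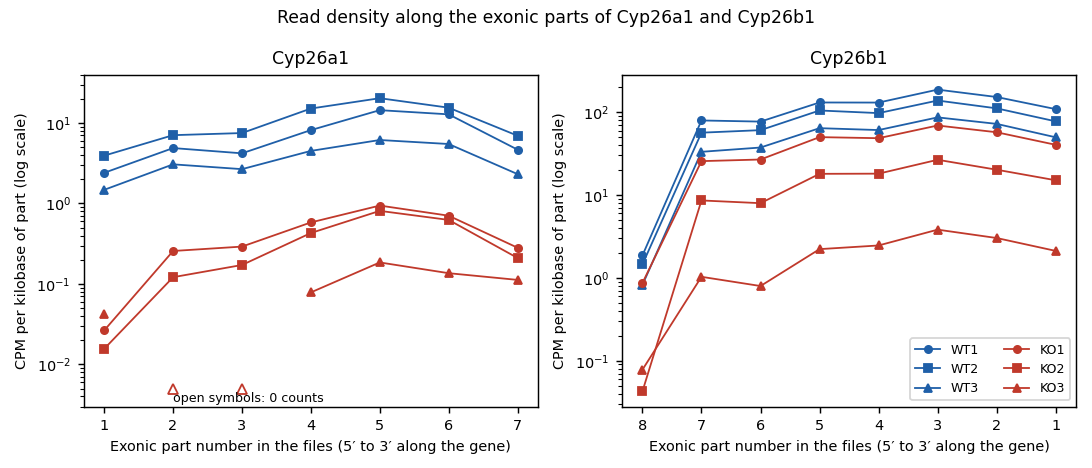
CPM per kilobase (log scale) of each exonic part of Cyp26a1 and Cyp26b1, ordered 5′ to 3′ along the gene, with one line per library (blue WT, red KO; open symbols mark 0 counts). The red lines lie below the blue lines in every Cyp26a1 part, and for Cyp26b1 the red lines are spread over a wider range than the blue lines.

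The receptor genes each have more than 1 promoter, and the first exons tell which is in use. Rarb reads came from the first exon of ENSMUST00000063750, the exon that holds the repeat shown above, with 1193, 910 and 745 counts in WT1, WT2 and WT3 and 1216, 800 and 545 counts in KO1, KO2 and KO3. The upstream Rarb first exons had 2, 1 and 0 counts in WT and 2, 0 and 2 counts in KO. The exon that holds the repeat took 13.3% ± 0.856 of the Rarb reads in WT and 12.7% ± 0.622 in KO (SD, n = 3).

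Rara and Rarg drew on their upstream and internal first exons alike. For Rarg the upstream first exons stood at 8.35 ± 0.765 CPM per kilobase in WT and 8.70 ± 0.796 in KO, and the internal first exon at 13.6 ± 2.26 and 12.5 ± 2.21 (SD, n = 3). For Rara the upstream first exons stood at 2.60 ± 0.941 CPM per kilobase in WT and 3.15 ± 0.369 in KO, and the internal first exon at 2.68 ± 0.503 and 2.56 ± 0.340. The KO and WT values differed by less than the spread between libraries at each of these first exons.

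**Figure D3:**
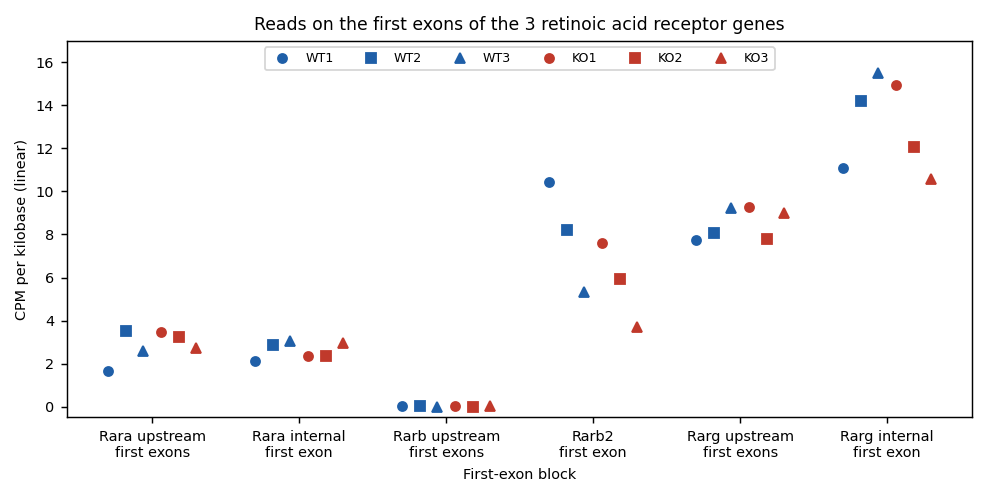
CPM per kilobase (linear axis) of the first exons of Rara, Rarb and Rarg in each library (blue WT1 to WT3, red KO1 to KO3; Rarb2 is the first exon of ENSMUST00000063750). The upstream Rarb exons lie at 0 to 0.0416 CPM per kilobase in every library, while Rara and Rarg have reads on both kinds of first exon, with KO and WT interleaved.

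Library by library, the CYP26 genes and Rarb shared parts of their order. Cyp26a1 ran WT2, WT1, WT3, KO1, KO2, KO3 from high to low, and Cyp26b1 differed from it only in placing WT1 above WT2. Rarb ran WT1, WT2, KO1, KO2, WT3, KO3. WT3 was the lowest WT library and KO3 the lowest KO library for all of Cyp26a1, Cyp26b1 and Rarb, with KO3 at 1.20%, 2.52% and 48.6% of the respective WT means. For Aldh1a2 too WT3 and KO3 were the lowest of their groups, at 79.0% and 84.7% of the WT mean. The same held for Cyp26c1 and Dhrs3, described below, with Dhrs3 at 94.5% in WT3 and 74.6% in KO3. The share of all genes with this pattern was not computed, so nothing is read from the shared order.

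**Figure D4:**
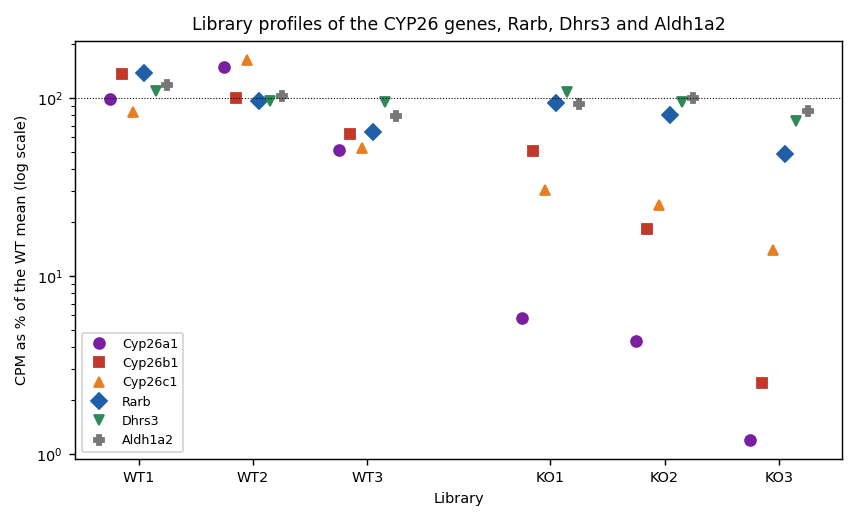
CPM in each library as a percentage of the gene's own WT mean (log scale, dotted line at the mean) for 6 retinoid genes. In KO3, Cyp26a1 is at 1.20%, Cyp26b1 at 2.52% and Rarb at 48.6% of the WT mean, while Aldh1a2 is at 84.7%.

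Over the 6 libraries, the 5 genes most like Cyp26a1 among 12190 genes with enough reads were Ndufa4l2, Ganab, Snrk, Ube2ql1 and Cyp4b1. Their Pearson r with Cyp26a1, on log2(CPM + 0.1), ran from 0.995 to 0.999. Those points share the split into KO and WT, and the sizes differ widely: Ube2ql1 had a log2 fold change of -0.94 and Ganab of -0.05, beside -4.72 for Cyp26a1.

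Of the 2 other genes within 100 kilobases of Cyp26a1, Cyp26c1 lies 4410 bases away and encodes the third retinoic acid hydroxylase of the family. Its values were chosen for description after they were seen. Cyp26c1 had 51, 97 and 39 counts in WT1, WT2 and WT3 and 26, 18 and 11 counts in KO1, KO2 and KO3, in the same library order as Cyp26a1. Its log2 fold change was -2.09 (SE 0.52), with an adjusted p of 0.0853 in edgeR and of 0.00673 in DESeq2, and of 0.00673 to 0.241 over all settings tried. Exoc6, an exocyst subunit on the other side of Cyp26c1, had a log2 fold change of -0.10 and an edgeR adjusted p of 0.649.

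Around the 9 genes, 78 further genes of the pathway were examined in 4 lists, of which 58 were tested. None rose and 3 fell (edgeR, adjusted over all genes), beside 3.37% of all genes called, and 15 had an unadjusted p under 0.05, beside 4469 of all 19742. DESeq2, fitted to 70 of the 78, called 11, beside 2541 of all 26939 genes fitted. In limma-voom 1 of the 58 was called, beside 491 of all 19742. These shares also stand beside the DESeq2 and limma-voom counts of the single lists below. The median log2 fold change of the 58 was -0.03.

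Among the other enzymes of retinoid metabolism, 17 were tested and none passed in edgeR, with 5 at an unadjusted p under 0.05, 3 called by DESeq2 and none by limma-voom. Dhrs3, which turns retinaldehyde back to retinol and is induced by retinoic acid in many tissues, was the most abundant of them, by CPM and per length. It stood at 111.9, 99.2 and 97.1 CPM in WT1, WT2 and WT3 and at 110.9, 97.8 and 76.7 CPM in KO1, KO2 and KO3, with a log2 fold change of -0.11 (SE 0.14). Rdh11, Adh5 and Retsat had log2 fold changes of -0.11, 0.01 and 0.21.

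Of the binding and transport genes, 6 were tested and none passed, with 1 at an unadjusted p under 0.05, 1 called by DESeq2 and none by limma-voom. Among those with the most reads, Lrp2, Fabp5 and Stra6l had log2 fold changes of 0.54, 0.27 and 0.55. Lrp2 is also a gene of proximal tubule cells, whose 10 markers summed to 485 to 947 CPM in WT and 819 to 1218 CPM in KO; their part in its value was not tested.

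In the list of RXR receptors and cofactors, 2 of 16 genes fell and none rose in edgeR, beside 1.76% of all genes lower and 1.62% higher, while DESeq2 called 4 and limma-voom none. Crebbp, a histone acetyltransferase that works as a coactivator of nuclear receptors, averaged 86.0 ± 3.74 CPM in WT and 61.6 ± 7.20 CPM in KO (SD, 3 libraries each), and passed in edgeR at an adjusted p of 0.0476 (log2 fold change -0.48, SE 0.09). Nr2f2, an orphan nuclear receptor, averaged 101.8 ± 4.88 CPM in WT and 83.3 ± 3.01 CPM in KO, and passed in edgeR at an adjusted p of 0.0466 (log2 fold change -0.29, SE 0.05). The Nr2f2 call was lost without any one of the 6 libraries, and the Crebbp call held only without KO3. The corepressor Ncor1, the coactivator Ncoa3 and Tbl1x, a corepressor subunit, had log2 fold changes of -0.09, -0.29 and -0.08. In this list 13 of 16 genes had a log2 fold change below 0, beside 49.1% of all genes, with a median of -0.11. For 8 of 16, all KO libraries lay below all WT libraries, beside 14.8% of all genes. The list was not tested as a set.

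Among 19 tested genes known as retinoic acid targets, 1 fell and none rose in edgeR, beside 1.76% of all genes lower and 1.62% higher, with a median log2 fold change of -0.05. DESeq2 called 3 genes of this list and limma-voom 1. The edgeR call was Cd38, an NAD glycohydrolase, at 145.7, 134.1 and 123.7 CPM in WT1, WT2 and WT3 and 105.5, 97.0 and 91.9 CPM in KO1, KO2 and KO3. Its log2 fold change was -0.45 (SE 0.08, edgeR adjusted p = 0.0428), and the call was lost without any one of the 6 libraries. Meis2, Lamb1 and Tgm2, named for their high read counts, had log2 fold changes of -0.16, -0.05 and 0.22.

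**Figure D5:**
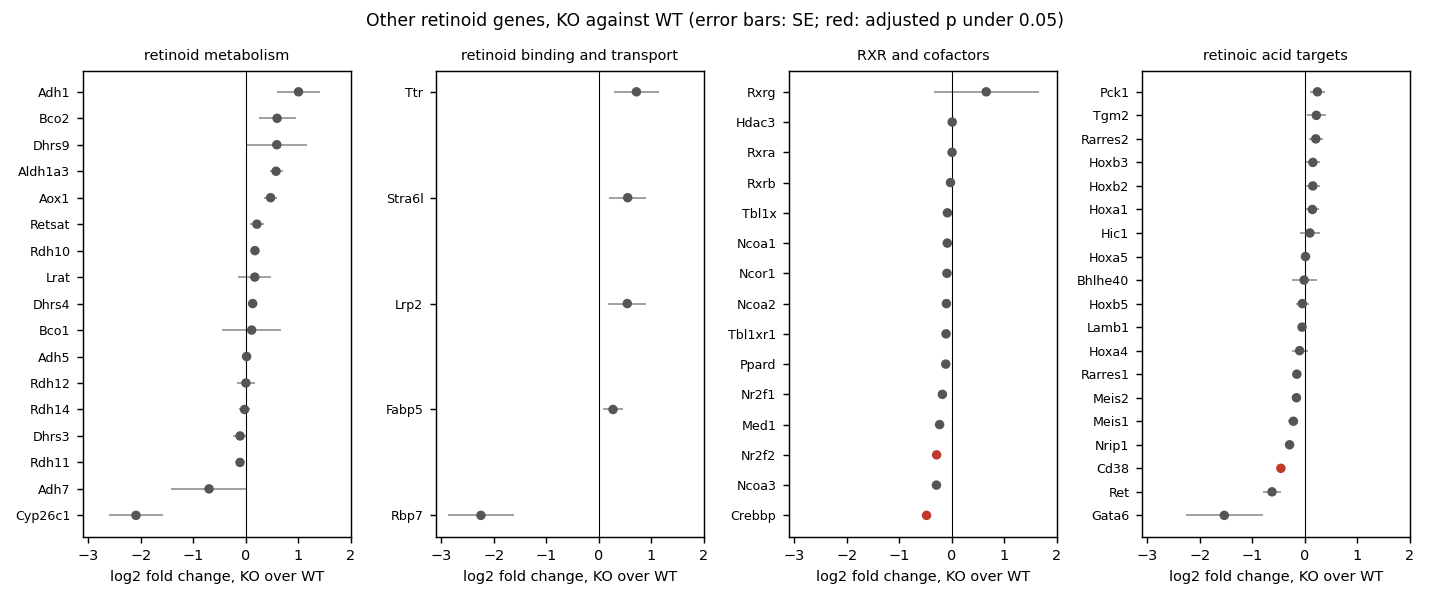
Log2 fold change of KO over WT (points) with its SE (bars) for 56 of the 58 tested genes of the 4 other retinoid lists; red points passed an adjusted p of 0.05 in edgeR. Crebbp, Nr2f2 and Cd38 are red and below 0, and Rbp7, Cyp26c1 and Gata6 lie furthest below 0 without passing. Gata6 and Rbp7 are scarce, and WT3 holds most of their WT counts. Gata6 had 33, 37 and 247 counts in WT1 to WT3 and 48, 30 and 45 in KO1 to KO3. Rbp7 had 16, 16 and 73 counts in WT1 to WT3 and 8, 7 and 10 in KO1 to KO3.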

How the data were processed

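Polyadenylated RNA of 3 KO and 3 WT libraries was sequenced. The authors deposited, per library, raw read counts for each exonic part of the Ensembl 67 annotation (NCBIM37), with bases covered, part length and the covered fraction, per the values and entries of the tables. Per the submitters' processing notes the aligner was TopHat 1.4.1; those notes name a human build, against the mouse build in the tables. How reads were counted, and whether by strand, is not given in the sources used here.

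Symbols were matched by identifier (31300 of 35981 single identifiers). A gene's count is the sum over its parts, so a read crossing parts enters more than once. Genes were fitted with edgeR 4.0.16 in R 4.3.3 (TMM, filterByExpr, quasi-likelihood, Benjamini-Hochberg over all 19742 genes, threshold 0.05). CPM uses TMM library sizes. The fit was also run on counts simulated from a dispersion trend alone. Those lack the gene-by-gene spread of these libraries, so nothing is read from that run. DESeq2 1.42.0, limma-voom (limma 3.58.1), RLE scaling, other filters and gene counts, a replicate block and leaving out each library were alternatives. Named genes were the 9 members, the genes that passed and the 4 of each other list with the highest mean log2 CPM (2 of these are not reported here), Cd2bp2, and the 5 genes most like Cyp26a1; Cyp26c1, Exoc6, Rbp7 and Gata6 were added after their values were seen. Members and lists were chosen with earlier results of these data known. Promoters are RefSeq windows of 250 bases before to 50 after a start. No library was a copy of another: the mean chi-square per gene between replicates was 75.9 to 219.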

Additional observations from a re-analysis of the deposited data

How the results depend on the processing

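The log2 fold change of Cyp26a1 stayed between -5.18 and -4.30 in all 14 alternatives, each within the spread between replicates of the reported value. Cyp26b1, Aldh1a1 and Rarb kept their sign in all 14, and Stra6 and Crabp2 in the 12 that gave a value; Aldh1a2 and Rara changed sign in 1 and Rarg in 4, all with values near 0. The 666 genes changed between KO and WT became 2541 with DESeq2, 424 with one exonic part per gene, its longest, and 82 with the replicate block, and 31 to 254 when 1 library was left out. The 3 other retinoid genes became 11 with DESeq2, 1 with limma-voom, 0 with the longest part alone and 0 with the replicate block (15 at an unadjusted p under 0.05), and 0 to 1 when 1 library was left out. Fewer samples or fewer reads entered the fits without a library and with the longest part alone; for the others the cause was not tested. The share of called genes that were higher in KO was 47.9% as reported, 62.2% with the replicate block and 41.7% to 74.2% when 1 library was left out. Same-numbered libraries deviated together weakly or not at all (r of 0.107, -0.06 and 0.158 for numbers 1, 2 and 3). WT3 and KO3 had the highest r of any pair, while KO2 correlated best with WT1 (0.107). WT1 correlated as well with KO2 as with KO1, and the numbers were not treated as pairs. With the replicate block the SE of Rarb fell from 0.33 to 0.08, at a log2 fold change of -0.41. The SE rose for Rarg, Stra6 and Crabp2 and fell for the other members. Depth limits Crabp2, with 5 to 29 counts a library, and the exon shares of Cyp26a1 in KO3, with 31 counts.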

Other observations

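Of the other retinoid genes, 4 had every KO library above every WT library without passing in the main edgeR fit. They are Aldh1a3, Rdh10, Adh1 and Aox1, chosen for mention after their values were seen. That is 4 of 58 tested, beside 14.1% of all genes, and 15 of the 58 had every KO library below every WT library, beside 14.8%. Aldh1a3, the third retinaldehyde dehydrogenase, stood at 8.09, 8.49 and 6.93 CPM in WT1, WT2 and WT3 and at 10.1, 12.1 and 12.7 CPM in KO1, KO2 and KO3. Its log2 fold change was 0.57 (SE 0.12), with an edgeR adjusted p of 0.064, and of 0.000615 to 0.180 over the 14 other settings. Per length it remained below Aldh1a2, at 1.70 ± 0.176 CPM per kilobase in WT and 2.53 ± 0.294 in KO (SD, n = 3).

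Rdh10, which makes the first oxidation of retinol in the embryo, stood at 16.6 to 17.9 CPM in WT and 18.5 to 20.6 CPM in KO, with an edgeR adjusted p of 0.207. Aox1, an aldehyde oxidase that also acts on retinaldehyde, stood at 4.61 to 5.29 CPM in WT and 6.41 to 7.92 CPM in KO. The Aox1 adjusted p was 0.0944 in edgeR and 0.00607 to 0.248 over the 14 other settings. Adh1 stood at 1.68 to 2.02 CPM in WT and 2.12 to 6.30 CPM in KO, with an edgeR adjusted p of 0.218. Its highest library was KO2, which also had the highest sum of proximal tubule markers (1218 CPM). The 9 loop, distal tubule and collecting duct markers summed to 523, 1395 and 262 CPM in KO1, KO2 and KO3, beside 2.59, 6.30 and 2.12 CPM of Adh1, and to 177 to 335 CPM in WT; the part of tubule RNA in these values was not tested.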
